A study of Mus musculus with 8 samples.

Results

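The genes described here are 36 complement and coagulation genes of mouse liver, listed by gene name with earlier results of these data known. All 36 were found among the 13774 genes of one deposited table and the 11773 of the other. They comprised 11 complement genes, 4 genes of the lectin pathway, 13 clotting factor genes and 8 genes of inhibitors and fibrinolysis. The libraries came from liver RNA of C57BL/6 mice that had all been fed a high-fat diet (42%) for 8 weeks, in 4 groups of 2 libraries each. In the TG table, Ube3a TG homo mice, which overexpress the ubiquitin ligase gene Ube3a, were set against a WT pair. In the het table, Ube3a het mice, with 1 knockout and 1 WT allele, were set against another WT pair. No source used here gives sex, age or the promoter of the transgene, and every group, WT included, was on the diet, so no comparison with a normal diet was possible. Separate animals are not named for the 2 libraries of a group, so p-values measure only the spread between these libraries, which may be technical.

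Complement and coagulation are cascades of serine proteases that circulate in plasma as inactive precursors and activate each other in turn. Complement is started by antibodies (C1), by sugars on microbes (the lectin pathway) or by slow spontaneous turnover of C3, and ends in a pore built from C5b, C6, C7, C8 and C9. Clotting runs from tissue factor with factor VII, or from the contact factors, through factor X to thrombin, which turns fibrinogen into fibrin that plasmin later dissolves. Hepatocytes make most of these proteins, and several of them are acute phase proteins whose synthesis cytokines alter during inflammation.

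Values are normalised read counts, that is, reads per gene divided by 1 factor per library, and a log2 fold change is the difference of mean log2(value + 1) between a mutant pair and its own WT pair. A gene was called changed where limma's Benjamini-Hochberg adjusted p over all genes of the table was under 0.05. Recovered reads numbered 44193275 to 47928229 per TG-table library and 13171145 to 17748088 per het-table library. The tables were normalised separately, so levels are compared only within a table. Ube3a itself stood at 1187 and 1359 in WT and 5991 and 5938 in TG, and at 369 and 409 in WT and 301 and 280 in het. No library went against its label, although limma's adjusted p was 0.0586 in TG and 0.129 in het.

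Marker genes of endothelial cells and of macrophages lay on opposite sides of WT in the 2 genotypes. Of 14 endothelial markers, 14 lay below WT in TG (summed level 22807 to 22883 in WT and 18923 to 19108 in TG), and 14 lay above WT in het (5752 to 6101 in WT and 6807 to 7013 in het), where 2 were called. Kupffer cell and macrophage markers lay below WT in 11 of 12 cases in TG (summed level 32780 to 34922 in WT and 22831 to 28569 in TG) and above WT in 11 of 12 in het (7235 to 10445 in WT and 9143 to 12268 in het). In het the summed levels of the macrophage markers overlapped. Both het libraries lay above both WT libraries for 11 of the 14 endothelial but only 2 of the 12 macrophage markers, against 24.3% of all genes. In TG both lay below both WT libraries for 12 and 7 of them, against 21.6%. Among 8 measured hepatocyte markers, 7 lay above WT in TG (median log2 fold change 0.34) and 6 below WT in het (median -0.14). The summed levels of these overlapped in both tables. The remaining cell type lists showed no clear reversal. Of 10 stellate markers in TG, 5 lay above and 5 below WT, and of 9 measured in het, 3 above and 6 below. Lymphocyte and neutrophil markers lay below WT in 9 of 10 cases in TG and in 2 of 4 in het. Cholangiocyte markers lay below WT in 4 of 5 cases in TG, and only 1 was measured in het. None of the measured markers was at 0 in any library, and their part in the results below was not tested. In bulk liver RNA, fewer cells of a type and less RNA per cell cannot be told apart. The second TG library also stood apart in 6 immediate early genes, with a summed level of 37674 against 2276 in the other TG library and 6099 and 5945 in WT.

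In TG livers, no single gene of the 36 passed the test, but most lay somewhat above WT, the clotting factors most evenly. Of the 36 genes, 32 had a log2 fold change above 0, against 50.2% of all genes tested, and 4 below 0, against 49.8%. The first count was 30 when library sizes left out the 20 most abundant genes. Both TG libraries exceeded both WT libraries for 21 of the 36 (58.3%, against 21.8% of all genes), and both lay below both WT libraries for 3, namely C6, C8g and C9 (8.33%, against 21.6%). The median log2 fold change was 0.22 over the 36 genes and 0.0 over all genes. By role it was 0.36 for clotting factors, 0.21 for inhibitors and fibrinolysis, 0.14 for complement and 0.09 for the lectin pathway.

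By limma, 0 of the 36 were called in TG, as were 0 of all 13774 genes (0.0%). At an unadjusted p under 0.05, 5 of the 36 lay higher (C1ra, C8b, F7, F11 and F13b) and 0 lower, against 5.15% of all genes higher and 3.96% lower. With edgeR the count of called genes among the 36 was 0 and with DESeq2 it was 2, C8b (adjusted p = 0.0148) and C1ra (adjusted p = 0.0432). Over all 13774 genes edgeR called 0 and DESeq2 188. Taken alone, the first TG library exceeded both WT libraries for 25 of the 36 (69.4%, against 38.2% of all genes), and the second, the library that stood apart in immediate early genes, for 29 (80.6%, against 36% of all genes). That split by single libraries was chosen after the data had been seen.

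In het livers, 2 of the 36 genes were called, and both fell: C8b, a subunit of the membrane attack complex, and F7, the protease that starts clotting with tissue factor. That is 5.56% of the genes, where 0.544% of all 11773 genes were called lower, 0.892% higher and 1.44% in either direction. At an unadjusted p under 0.05, 8 lay lower (C1ra, C2, C8a, C8b, F7, Proc, Serpinf2 and Vtn; 6.11% of all genes) and 2 higher (C4b and C6; 8.58% of all genes). In all, 27 of the 36 had a log2 fold change below 0, against 50.1% of all genes, and 9 above 0, against 49.9%. The count below 0 was 28 under TMM scaling and 29 when library sizes left out the 20 most abundant genes. Both het libraries lay below both WT libraries for 19 (52.8%, against 23.7%) and above for 4, C4b, C6, Masp1 and Mbl1 (11.1%, against 24.3%). The median log2 fold change was -0.10 over the 36 genes. It was -0.24 for inhibitors and fibrinolysis, -0.09 for clotting factors, -0.03 for complement and 0.03 for the lectin pathway.

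**Figure D1:**
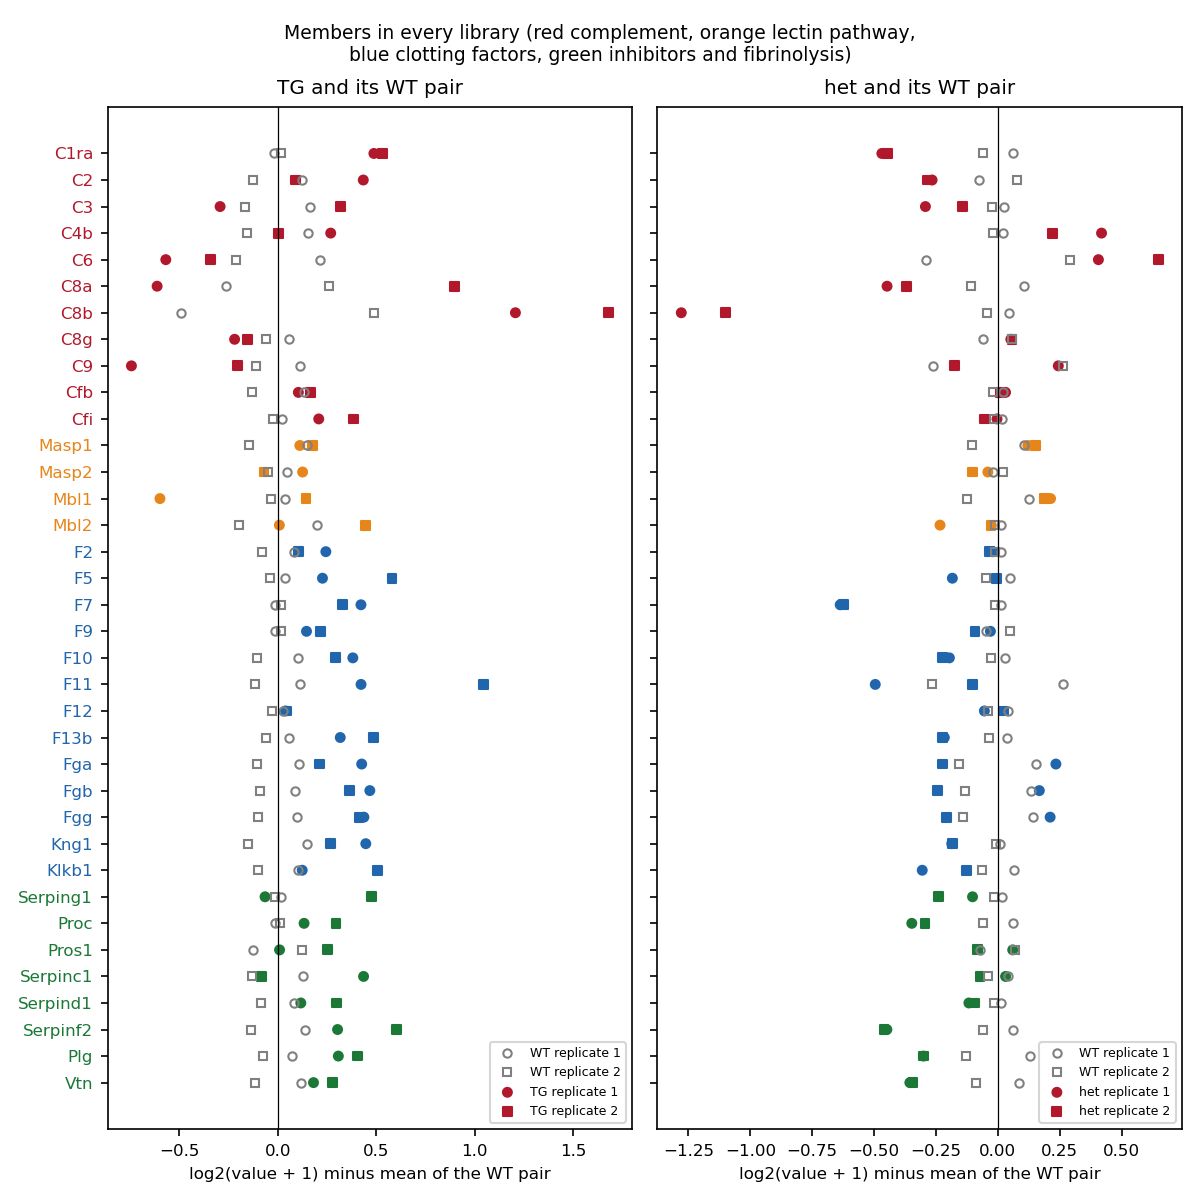
Every library's log2(value + 1) of each of the 36 genes, minus the mean of the WT pair of the same table (left TG, right het; open symbols WT, filled symbols mutant, circles replicate 1 and squares replicate 2; the horizontal scales differ). For the 13 clotting factors both TG libraries lie to the right of both WT libraries, and in het the filled symbols of C8b and F7 lie far to the left of WT.

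Set side by side, most of the genes stood on opposite sides of WT in the 2 genotypes. A value above WT in TG and below WT in het was found for 27 of the 36 (75%), against 29.7% of the 11754 genes of both tables. The reverse held for 4 (11.1%, against 29.0%), C6, C8g, C9 and Mbl1, and 5 lay above WT in both, C4b, Cfb, Masp1, Fga and Fgg. With the stricter rule that every library had to follow, 13 of the 36 were above WT in TG and below WT in het (36.1%, against 7.23%), and 1, C6, was the reverse (2.78%, against 7.86%). Across the 36 genes the log2 fold changes of TG and het had Pearson's r = -0.78, and across all 11754 genes r = -0.32. By role r was -0.86 for complement, which holds C8b, the largest change in both tables. It was -0.8 for inhibitors and fibrinolysis and -0.38 for clotting factors. C8b weighs on the r over the 36 genes too, and no r without it was computed. Each comparison has its own WT pair, and genes are not independent points.

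The difference of the effects, TG minus het, was above 0 for 31 of the 36 (51.6% of all genes) and below 0 for 5 (48.4% of all genes), and had a median of 0.37, against 0.01 over all genes. It was called for 2 of the 36 (5.56%, against 0.434% of all genes), C1ra and F7, both higher (0.204% of all genes, with 0.23% lower). At an unadjusted p under 0.05 it was higher for 12 (8.42% of all genes) and lower for 1, C6 (8.28% of all genes). For F7 it was 1.01 on the log2 scale (SE 0.14, 95% interval 0.69 to 1.32, limma adjusted p = 0.0338) and for C1ra 0.97 (SE 0.15, 95% interval 0.63 to 1.31, limma adjusted p = 0.0471). For C8b it was larger, 2.63, but less certain (SE 0.45, 95% interval 1.56 to 3.71, limma adjusted p = 0.0804). The calls of F7 and C1ra depended on single libraries. Without either TG library they held, with adjusted p of 0.0246 and 0.0074 for F7 and 0.0267 and 0.0137 for C1ra, but without any WT or het library they were lost, with adjusted p of 0.0929 to 0.207 for F7 and 0.0998 to 0.254 for C1ra. They were also lost when library sizes left out the 20 most abundant genes (0.0532 for each) and with a replicate block (0.0795 for F7 and 0.0991 for C1ra). With edgeR F7 was called (adjusted p = 0.0437) and C1ra was not (0.055), where edgeR called 40 of all 11754 genes. With DESeq2 6 of the 36 were called, C1ra, C8b, F7, F13b, Plg and Serpinf2, and 371 of all 11754 genes.

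**Figure D2:**
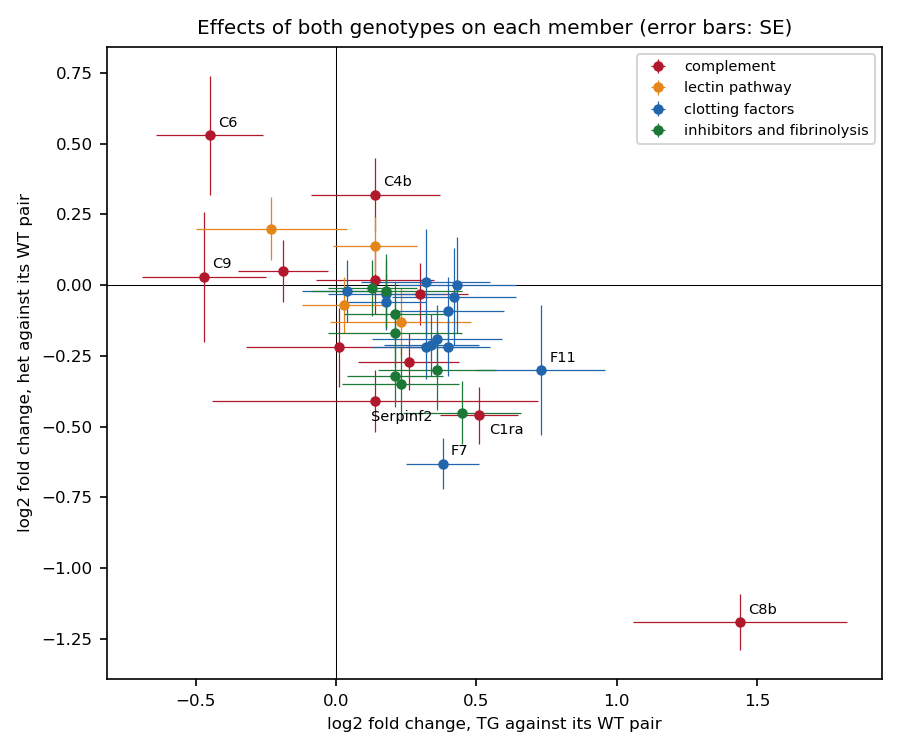
Log2 fold change of each of the 36 genes in TG (horizontal axis) against that in het (vertical axis), each against its own WT pair, with standard errors as bars. Of the 36 points, 27 lie in the lower right quadrant, C8b farthest out at 1.44 and -1.19, and C6 lies in the upper left at -0.45 and 0.53.

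Among the complement genes, the classical pathway protease C1ra (a mouse gene of the C1r subunit; ENSMUSG00000055172, chromosome 6, 124512405 to 124523443, + strand, GRCm38) was the most even. It stood at 8026 and 8214 in WT and at 11389 and 11743 in TG, a 1.42-fold higher mean (log2 fold change 0.51, SE 0.14, limma adjusted p = 0.518). Het-table values were 3166 and 2908 in WT and 2192 and 2225 in het (log2 fold change -0.46, SE 0.10, limma adjusted p = 0.0734; DESeq2 adjusted p = 0.0291). The pairs did not overlap in either table. C1rb, a near-identical neighbour that may share reads with it, had a similar pattern, and C1ra counts were 2.18 to 2.28 times those of C1rb in the TG table and 2.56 to 2.79 times in the het table, so the 2 copies cannot be told apart firmly.

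C8b (ENSMUSG00000029656, chromosome 4, 104766317 to 104804548, + strand) encodes the beta chain of C8, which docks C8 onto the growing pore. Its WT libraries stood at 972 and 915 in the het table, and its het libraries at 388 and 439. There the groups lay far apart, with means of 943 ± 40.8 (SD, n = 2) in WT and 414 ± 36.5 (SD, n = 2) in het, a 2.28-fold lower level. On the log2 scale het minus WT was -1.19 (SE 0.10, 95% interval -1.42 to -0.95, limma adjusted p = 0.00203), and it remained called without any 1 of the 4 libraries, with adjusted p of 0.00585 to 0.0176, but not in a fit that shared its spread over all 8 libraries (adjusted p = 0.325). In the TG table C8b stood at 720 and 1418 in WT and at 2333 and 3235 in TG. There the WT libraries themselves differed widely, and the log2 fold change was 1.44 (SE 0.38, limma adjusted p = 0.518), or 0.95 to 1.93 with a library left out.

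The other C8 chains did not follow C8b closely. C8a, whose gene lies 11.1 kb from C8b on the opposite strand, stood at 3029 and 4359 in WT and 2377 and 6776 in TG, so that the groups overlapped. Its libraries in the het table were 2250 and 1939 in WT and 1531 and 1617 in het, all lower (log2 fold change -0.41, SE 0.11, limma adjusted p = 0.121). C8a counts per C8b count were 4.21 and 3.07 in WT and 1.02 and 2.09 in TG, and 2.31 and 2.12 in WT and 3.95 and 3.68 in het, which shows unequal change of the pair within libraries. C8g, the small lipocalin-like chain, differed from WT by -0.19 (TG) and 0.05 (het) on the log2 scale.

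The promoters of C1ra and C8b are printed because these are the complement genes that passed a test. The sequences are RefSeq windows on GRCm38.p6 from 250 bases before to 50 after the start that RefSeq annotates, 5′ to 3′ on the gene's strand, chr6:124512371-124512670 (+ strand) and chr4:104766067-104766366 (+ strand). For C1ra that start lies inside the gene as placed above, whose first base (124512405) falls early in the window. Capitals mark matches to the motifs described further on.
C1ra: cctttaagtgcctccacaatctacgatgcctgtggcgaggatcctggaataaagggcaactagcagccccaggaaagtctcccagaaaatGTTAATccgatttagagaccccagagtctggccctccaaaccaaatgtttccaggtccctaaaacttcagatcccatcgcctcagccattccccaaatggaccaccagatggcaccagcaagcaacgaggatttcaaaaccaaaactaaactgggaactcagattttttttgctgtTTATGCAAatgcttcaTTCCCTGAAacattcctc
C8b: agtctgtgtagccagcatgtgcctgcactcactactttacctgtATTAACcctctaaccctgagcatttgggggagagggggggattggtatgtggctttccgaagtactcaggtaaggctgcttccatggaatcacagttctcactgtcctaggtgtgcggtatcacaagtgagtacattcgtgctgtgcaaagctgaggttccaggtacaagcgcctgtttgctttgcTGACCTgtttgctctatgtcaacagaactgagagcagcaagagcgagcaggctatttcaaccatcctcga
In C1ra these are, from left to right, an HNF1-type match, a C/EBP-type match and a STAT-type match, the last 2 after the RefSeq start. The HNF1-type match too lies inside the gene as placed above. In C8b they are an HNF1-type match and an HNF4-type match, the second at bases -20 to -15 counted from the start base as 0.

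C6, which binds C5b to start the pore, lay on the other side of WT from C8b in both tables. C6 stood at 1093 and 814 in WT and 636 and 745 in TG (log2 fold change -0.45, SE 0.19, limma adjusted p = 0.557), and at 199 and 298 in WT and 323 and 382 in het (log2 fold change 0.53, SE 0.21, limma adjusted p = 0.317). Neither passed the test, although the libraries of WT and mutant did not overlap in either table. C9, which forms the bulk of the pore, stood at 11299 and 9677 in WT and 6250 and 9087 in TG (log2 fold change -0.47, SE 0.22), and in the het table its groups overlapped (log2 fold change 0.03).

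None of the central and alternative pathway genes of this set was called by limma, edgeR or DESeq2. C3, the pivot of all 3 routes, stood at 425746 and 339002 in WT and 310211 and 474364 in TG, where the 2 TG libraries lay on either side of WT. Its het-table values were 104401 and 100828 in WT and 83747 and 92847 in het (log2 fold change -0.22, SE 0.14, limma adjusted p = 0.509). C2, which forms the C3 convertase with C4, differed by 0.26 (TG) and -0.27 (het) on the log2 scale, and its neighbour Cfb, 85 bases away, the counterpart of C2 in the alternative pathway, had 0.14 and 0.02. C4b stood at 24150 and 23430 in WT and 31795 and 27721 in het (log2 fold change 0.32, SE 0.13, limma adjusted p = 0.302). It shares near-identical sequence with C4a, so reads could be split between them. C4a, which lies outside this set, had a log2 fold change of 0.54 in het (limma adjusted p = 0.0801), and DESeq2 called it. Cfi, the protease that cuts C3b and C4b, differed by 0.30 (TG, no overlap) and -0.03 (het, overlap).

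None of the 4 lectin pathway genes was called in either table by limma, edgeR or DESeq2, and in TG none separated the groups. In het both libraries of Masp1 and Mbl1 lay above both WT libraries (50%, against 24.3% of all genes). Those of Masp2 and Mbl2 lay below (50%, against 23.7%). Mbl1 and Mbl2 encode mannose-binding lectins, and Masp1 and Masp2 the proteases that they carry. Mbl1 stood at 8384 and 7989 in WT and 5408 and 9039 in TG, and at 2899 and 2432 in WT and 3077 and 3026 in het (log2 fold change 0.20, SE 0.11). Mbl2 stood at 31987 and 24329 in WT and 28060 and 37957 in TG, and at 9099 and 8937 in WT and 7668 and 8844 in het (log2 fold change -0.13, SE 0.12). Masp1 stood at 3021 and 2462 in WT and 2948 and 3082 in TG, and at 665 and 576 in WT and 673 and 687 in het (log2 fold changes 0.14 in both). Masp2 had log2 fold changes of 0.03 and -0.07. At an unadjusted p under 0.05, 0 of the 4 genes stood out in either table.

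All 13 clotting factor genes had both TG libraries above both WT libraries, where 21.8% of all genes did, and log2 fold changes from 0.04 (F12) to 0.73 (F11), above 0 under each scaling tried. None was called by limma, edgeR or DESeq2 in TG, and 3 lay higher at an unadjusted p under 0.05, where 5.15% of all genes did. In het 11 of the 13 lay below WT (12 under TMM scaling and 13 when library sizes left out the 20 most abundant genes), 6 of them with both libraries below both WT libraries (46.2%, against 23.7%), and 1 was called lower, where 0.544% of all genes were.

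F7 (ENSMUSG00000031443, chromosome 8, 13026034 to 13035809, + strand) encodes factor VII. It stood at 2368 and 2324 in WT and at 1508 and 1523 in het, the replicates of each group within a few percent of each other. The mean was 1.55-fold lower in het, 1516 ± 10.4 against 2346 ± 31.3 (SD, n = 2 each). On the log2 scale this was -0.63 (SE 0.09, 95% interval -0.84 to -0.42, limma adjusted p = 0.0214). That call was lost without the first WT library (adjusted p = 0.0764), without the first het library (0.12) and without the second (0.0882), while the log2 fold change stayed between -0.64 and -0.62. It was lost too in a fit that shared its spread over all 8 libraries (adjusted p = 0.17). In the TG table F7 stood at 6227 and 6362 in WT and at 8436 and 7901 in TG (log2 fold change 0.38, SE 0.13, limma adjusted p = 0.535).

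F10, the gene of factor X, which factor VII activates, begins 1.5 kb after the end of F7 on the same strand. It stood at 20968 and 18171 in WT and 25424 and 23937 in TG, and at 7593 and 7302 in WT and 6500 and 6375 in het. The groups did not overlap in either table, with log2 fold changes of 0.34 (SE 0.17) and -0.21 (SE 0.11), smaller than those of F7 in het. The cofactor gene F5 and the thrombin gene F2 had log2 fold changes of 0.40 and 0.18 in TG and -0.09 and -0.03 in het.

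The promoters of F7 and F10 are shown for comparison of these neighbours (RefSeq, GRCm38.p6, chr8:13025784-13026083 and chr8:13037058-13037357, both + strand). The capitals in each mark the HNF4-type match on the reverse strand.
F7: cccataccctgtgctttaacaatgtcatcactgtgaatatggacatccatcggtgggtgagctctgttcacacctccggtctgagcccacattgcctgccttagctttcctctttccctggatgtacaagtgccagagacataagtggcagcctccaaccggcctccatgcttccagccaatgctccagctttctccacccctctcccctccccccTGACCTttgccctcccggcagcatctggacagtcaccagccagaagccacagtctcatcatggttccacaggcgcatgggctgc
F10: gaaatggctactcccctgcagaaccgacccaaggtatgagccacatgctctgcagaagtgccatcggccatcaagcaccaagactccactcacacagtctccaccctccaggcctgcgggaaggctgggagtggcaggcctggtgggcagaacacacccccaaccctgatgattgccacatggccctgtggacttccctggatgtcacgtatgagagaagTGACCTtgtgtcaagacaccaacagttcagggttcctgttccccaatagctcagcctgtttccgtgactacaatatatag
The match lies at bases -34 to -29 in F7 and -30 to -25 in F10, and no other motif of the set was found in these 2 windows.

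Of the intrinsic pathway, F11 showed the largest value among clotting factors in TG. F11 encodes factor XI, which thrombin and factor XIIa activate. It stood at 2128 and 1819 in WT and 2638 and 4061 in TG (log2 fold change 0.73, SE 0.23, limma adjusted p = 0.526), and at 956 and 662 in WT and 564 and 741 in het, where the groups overlapped (log2 fold change -0.30). Without the second TG library, the one with high immediate early genes, the TG value was 0.42. Klkb1, the prekallikrein gene 4.66 kb from F11, stood at 6859 and 5963 in WT and 6971 and 9086 in TG, and at 2213 and 2024 in WT and 1712 and 1936 in het (log2 fold changes 0.32 and -0.22). Kng1, the kininogen that carries prekallikrein, had log2 fold changes of 0.36 and -0.19, F9 0.18 and -0.06, and F12 0.04 and -0.02. Kng1 has a close copy, Kng2, which could share reads with it.

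F13b, the carrier chain of the fibrin-linking factor XIII, stood at 9800 and 9034 in WT and 11725 and 13186 in TG (log2 fold change 0.40, SE 0.15, limma adjusted p = 0.542). Its het-table values were 3240 and 3074 in WT and 2716 and 2700 in het (log2 fold change -0.22, SE 0.10, limma adjusted p = 0.343). The difference of the effects was 0.62 (limma adjusted p = 0.15; DESeq2 adjusted p = 0.0408). Its pairs were apart in both tables, in opposite directions.

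The 3 fibrinogen genes, clustered on chromosome 3, encode the chains that assemble into 1 protein, and all 3 had both TG libraries above both WT libraries. Fgb stood at 113488 and 100428 in WT and 147618 and 137294 in TG (log2 fold change 0.42, SE 0.22, limma adjusted p = 0.602). Fgg stood at 92652 and 80807 in WT and 117163 and 115191 in TG (log2 fold change 0.43, SE 0.21), and Fga at 140039 and 120921 in WT and 174852 and 150906 in TG (log2 fold change 0.32, SE 0.23). The ratio of Fgb to Fgg ranged from 1.11 to 1.26 over the 8 libraries and that of Fga to Fgg from 1.31 to 1.51. For het the spread between replicates was larger than the difference between groups: Fgb stood at 51704 and 42922 in WT and 52900 and 39822 in het, with log2 fold changes of -0.04 for Fgb, 0.01 for Fga and 0.00 for Fgg. The signs of Fga and Fgg in het turned negative (-0.01 and -0.02) when library sizes left out the 20 most abundant genes, and that of Fgg also under TMM scaling. Among 12 acute phase genes outside this set, 6 lay above and 6 below WT in TG (median log2 fold change 0.03), and 8 above and 4 below in het (median 0.27), and their part in these results was not tested.

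The Fgb promoter is printed as that of a fibrinogen gene whose window held 3 kinds of motif (RefSeq, GRCm38.p6, chr3:83049814-83050113, - strand). From left to right, capitals mark a STAT-type, a C/EBP-type and an HNF1-type match.
Fgb: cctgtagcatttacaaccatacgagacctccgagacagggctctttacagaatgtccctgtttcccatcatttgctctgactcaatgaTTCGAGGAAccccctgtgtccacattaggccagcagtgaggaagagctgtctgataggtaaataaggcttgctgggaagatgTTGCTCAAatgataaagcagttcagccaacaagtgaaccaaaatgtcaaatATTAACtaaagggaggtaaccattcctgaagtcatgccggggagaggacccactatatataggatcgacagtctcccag

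**Figure D3:**
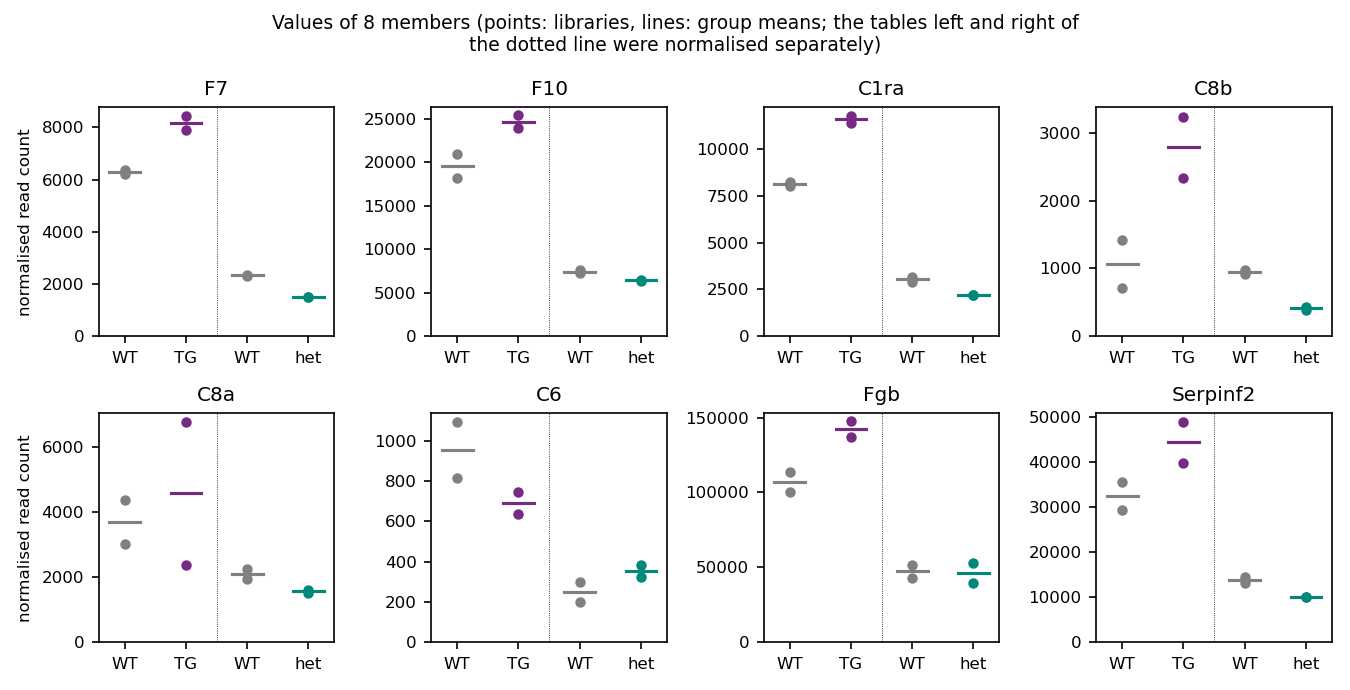
Normalised read counts of 8 of the genes in every library (points) with group means (lines), the TG table left and the het table right of each dotted line. F7 and C1ra show close replicates with TG above and het below WT, the WT libraries of C8b differ widely in the TG table (720 and 1418), and C6 runs in the opposite direction.

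The 8 genes of inhibitors and fibrinolysis had log2 fold changes above 0 in TG and below 0 in het for every member under each scaling tried, and 5 of the 8 (62.5%, against 7.23% of all genes) had every library on that side: Proc, Serpind1, Serpinf2, Plg and Vtn. By library the signs were less firm for the rest. The first TG library of Serping1 (36386) lay below both its WT libraries (38467 and 37625). The groups of Serpinc1 and Pros1 overlapped in both tables, with het log2 fold changes of only -0.02 and -0.01. None of the 8 was called by limma in TG or het. In het 3 lay lower at an unadjusted p under 0.05, where 6.11% of all genes did, and in TG 0 lay higher, where 5.15% did. In the comparisons with WT, edgeR called 0 and DESeq2 1, Serpinf2 in het, where DESeq2 called 289 of all 11773 genes. For the difference of the effects limma and edgeR called 0. DESeq2 called Serpinf2 (adjusted p = 0.00792) and Plg (adjusted p = 0.0499), among 371 of all 11754 genes.

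Serpinf2, the gene of alpha-2-antiplasmin, the main inhibitor of plasmin, stood at 14435 and 13270 in WT and 10141 and 10061 in het (log2 fold change -0.45, SE 0.11, limma adjusted p = 0.111; DESeq2 adjusted p = 0.0163). In the TG table it stood at 35545 and 29379 in WT and 39890 and 49011 in TG (log2 fold change 0.45, SE 0.21, limma adjusted p = 0.585). Plg, the gene of plasminogen itself, showed smaller differences. It stood at 103780 and 93859 in WT and 122155 and 130714 in TG (log2 fold change 0.36, SE 0.21), and at 40345 and 33789 in WT and 29975 and 29977 in het (log2 fold change -0.30, SE 0.14).

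Vtn encodes vitronectin, an adhesive plasma protein that blocks insertion of the complement pore. Its libraries stood at 89358 and 75993 in WT and 93459 and 99980 in TG (log2 fold change 0.23, SE 0.21), and at 35874 and 31796 in WT and 26391 and 26622 in het (log2 fold change -0.35, SE 0.13, limma adjusted p = 0.257). Proc, the gene of protein C, which inactivates factors Va and VIIIa, stood at 25693 and 26182 in WT and 28455 and 31847 in TG, and at 10243 and 9433 in WT and 7723 and 8014 in het (log2 fold changes 0.21 and -0.32). Its cofactor Pros1 overlapped in both tables (0.13 and -0.01).

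The serpins that stop clotting proteases were not called in any comparison by limma, edgeR or DESeq2. Serpinc1, the antithrombin gene, overlapped in both tables, with log2 fold changes of 0.18 and -0.02. Serpind1, the heparin cofactor II gene, had 0.21 and -0.10, and Serping1, the C1 inhibitor gene, which blocks C1r, C1s and the contact proteases, had 0.21 and -0.17.

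Per kb of exon, the level of the genes in the WT libraries spanned more than 2 orders of magnitude. In the TG table's WT pair C3 was highest with a mean of 74348 per kb, above Fga in both libraries, and was followed by Fga (43349), Fgg (41438) and Vtn (40727), whose libraries overlapped. At the low end C8b (420), Masp1 (279) and C6 (268) overlapped with each other. In the het table's WT pair C3 (19952), Fgg (19695), Fga (18447) and Vtn (16668) led, and C3 was not above Fgg beyond the spread.

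Together the 36 genes took 3.94 and 3.45% of all values in the TG table's WT pair and 4.11 and 4.19% in TG. Their share in the het table was 4.05 and 3.76% in WT and 3.70 and 3.47% in het. The mutant pairs lay on opposite sides of their WT pairs without overlap, but the gap to the nearest WT library was smaller than that between the WT libraries in both tables. Fibrinogen took 0.758 and 0.677% in WT and 0.961 and 0.84% in TG, and 1.05 and 0.868% in WT and 1.08 and 0.809% in het, where the groups overlapped. For comparison with other genes at least as abundant as the lowest of the 36: of 5966 such genes in the TG table, both TG libraries were above WT for 26.3%, and of 5499 in the het table, both het libraries were below WT for 23.1%. That lowest mean was 822 in the TG table and 301 in the het table. The median of the 36 was 24903 and 7631, so the comparison genes are not matched to them in level.

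**Figure D4:**
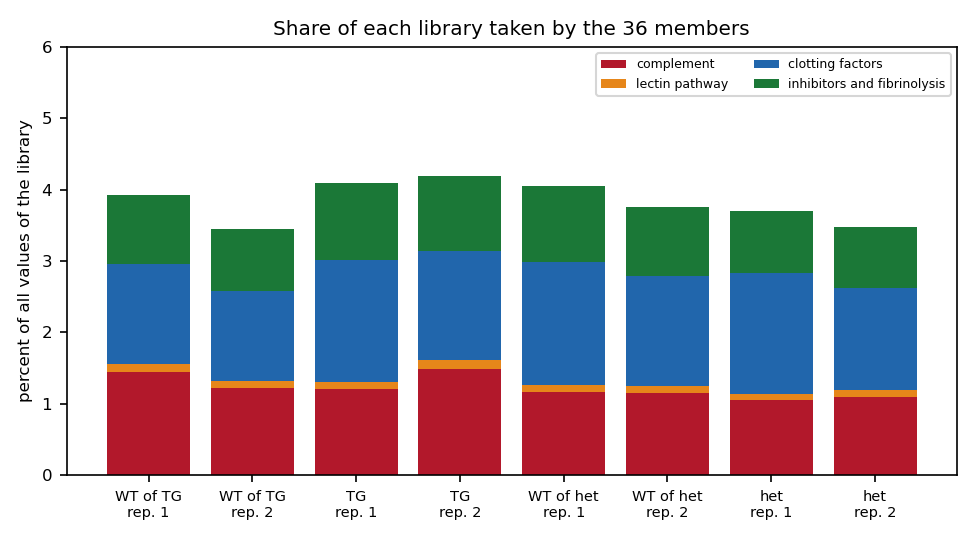
Percent of all normalised read counts of each library taken by the 36 genes, split by role. The TG bars (4.11 and 4.19%) stand above and the het bars (3.70 and 3.47%) below the WT bars of their own table.

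Further genes of the pathways were taken from a list of 83, of which 79 were measured in the TG table and 72 in the het table. In TG limma and edgeR called 0 of the 79 and 0 of all 13774 genes. DESeq2 called 1 of the 79, C1rb, and 188 of all 13774 genes. At an unadjusted limma p under 0.05, 6 lay higher (7.59%, against 5.15% of all genes) and 2 lower (2.53%, against 3.96%). The 3 of smallest p in TG were C1rb, 3606 and 3599 in WT and 5222 and 5196 in TG (log2 fold change 0.53, limma adjusted p = 0.447), Cfp, the properdin gene of macrophages, 1891 and 1850 in WT and 1168 and 1393 in TG (-0.55, adjusted p = 0.495), and Socs3, a feedback inhibitor of cytokine signalling, 247 and 175 in WT and 388 and 330 in TG (0.78, adjusted p = 0.518). By list, 15 of 29 complement genes, 28 of 39 coagulation genes and 9 of 11 regulator and receptor genes lay above WT, where 50.2% of all genes did.

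For the difference of the effects 1 of 71 was called, C1rb (1.03, SE 0.15, limma adjusted p = 0.0394), which may share reads with C1ra, and that call was lost without any WT or het library (adjusted p 0.0756 to 0.183), when library sizes left out the 20 most abundant genes (0.0532) and with a replicate block (0.0811). The limma call of 1 of 71 stood against 0.434% of all genes. DESeq2 called 5 of the 71, Ahsg, C1rb, C1s1, Foxa2 and Serpina1a, where it called 371 of all 11754 genes. In het, of the genes of this further list reported here, DESeq2 called C4a, Gas6, Serpina1a and Serpina1c, where it called 289 of all 11773 genes. By list, 12 of 26 complement genes, 23 of 35 coagulation genes and 6 of 11 regulators lay below WT in het, where 50.1% of all genes did.

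RefSeq promoter windows were found for 27 of the 36 genes, all except C2, C4b, Cfb, Cfi, Masp1, Kng1, Serping1, Plg and Proc. Each 300-base window was searched on both strands for letters typical of liver factors. The HNF4-type motif AGGTCA was present in 12 of the 27 (44.4%, against 16.3% of all 32851 windows), the C/EBP-type TTGCNNAA in 9 (33.3%, against 10.8%), the HNF1-type GTTAAT in 8 (29.6%, against 7.1%) and the STAT-type TTCNNNGAA in 8 (29.6%, against 8.3%). The TATA motif TATAAA was present in 3 (11.1%, against 13.6%). The full palindromic HNF1 motif, which contains GTTAAT, was in 0 of the 27 and in 0.00913% of all windows. AGGTCA between 60 bases before the start and the start base, a stretch chosen after the matches had been seen, was in 8 of the 27 (29.6%, against 3.5% of all windows): C6, C8b, F10, F2, F5, F7, F9 and Mbl2. Of these, C6 and C8b lay on opposite sides of WT in both tables. A match is a run of letters and not evidence of binding.

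**Figure D5:**
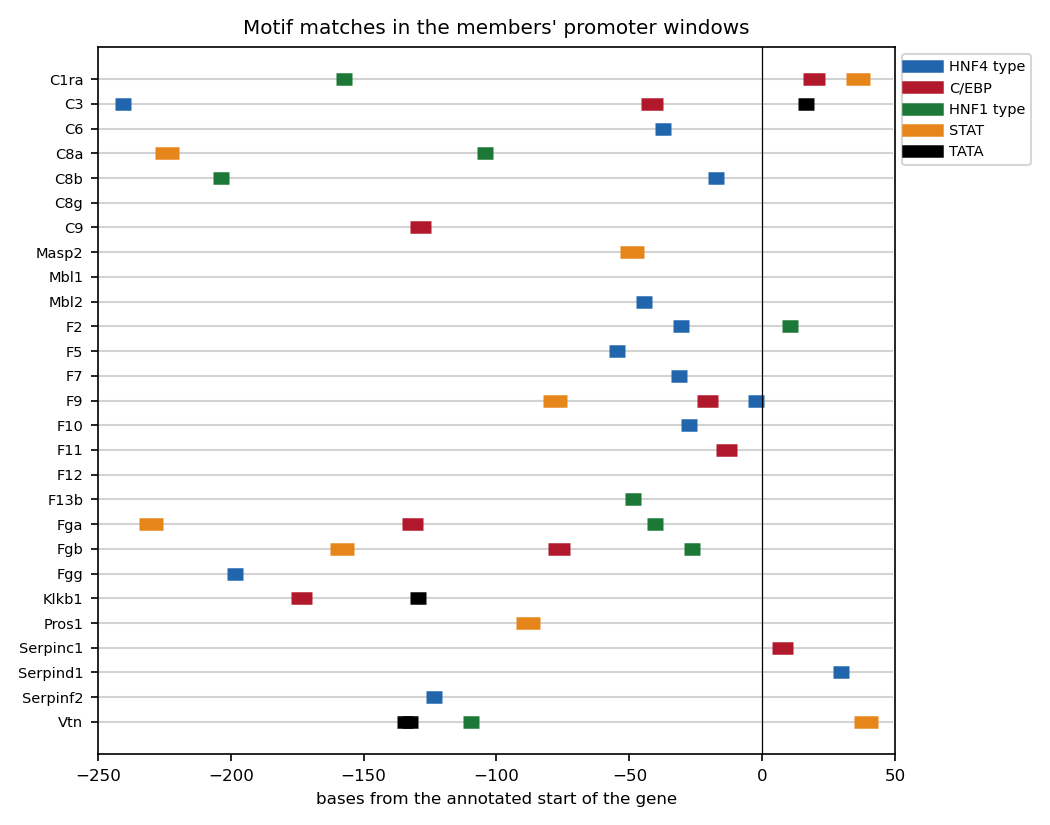
Positions of motif matches on either strand in the promoter windows of 27 of the genes, in bases from the annotated start (0, vertical line). HNF4-type matches (blue) of 8 genes lie between 60 bases before the start and the start base, on which that of F9 ends, and C8g, Mbl1 and F12 hold no match.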

How the data were processed

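Liver libraries of 4 groups (2 each) were analysed. Per the submitters' processing notes, Subread 1.5.2, featureCounts and DESeq2 were used with mm10/GRCm38; no source used here gives the annotation or the strand of counting. The signal values deposited are gene read counts that the authors divided by 1 factor per library: 100% of values were whole multiples of 1 read within 0.001 read. The lowest mean of a listed gene was 11.2 (TG) and 17.8 (het).

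Values were taken to log2(value + 1), which understates changes of low genes, and tested with limma 3.58.1 (trend, robust; R 4.3.3) within each table, and jointly over 11754 genes for the difference of the effects. On the recovered reads, edgeR 4.0.16 called 0 genes in TG, 87 in het and 40 for the difference; DESeq2 1.42.0 called 188, 289 and 371. The pipeline was tested on simulated data. Other alternatives were pseudocounts of 0.5 and 5, TMM, a CPM filter (mean of 5 or more), library sizes that left out the 20 most abundant genes, no robust estimates, a replicate block, 1 fit of all 8 libraries, each mutant library alone (added after seeing the data), and leaving out each library, which leaves an arm with a lone library assumed to vary like the others.

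The members, gene lists and markers were chosen with earlier results of these data known. Per-library values are given for called members, the 3 largest non-overlapping differences per role group and comparison (or the smallest p), and the 4 most abundant per length; values of other members named were added after they were seen. Positions are from GENCODE M21 on GRCm38, while promoter windows follow RefSeq starts, which can differ, as for C1ra. The result of 1 gene of the further pathway list is not reported here.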

Additional observations from a re-analysis of the deposited data

Results flagged for a closer look

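Differences between the genotypes that passed limma's test of the difference itself were found for F7 and C1ra. For F7 the effect of TG minus that of het was 1.01 on the log2 scale, from 0.38 (TG against WT) and -0.63 (het against WT). For C1ra it was 0.97, from 0.51 (TG) and -0.46 (het). Both calls were lost without any 1 of the WT or het libraries (6 of the 8), when library sizes left out the 20 most abundant genes and with a replicate block, and that of C1ra with edgeR. In each gene both TG libraries were above and both het libraries below their WT libraries.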

How the results depend on the processing

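Each group has 2 libraries, which limits the precision of every value, and the het table is the shallower. Over all alternatives 28 to 32 of the 36 genes lay above WT in TG, 24 to 29 below WT in het, and 28 to 31 had a difference above 0. The number of the 36 called was 2 in TG, 4 in het and 6 for the difference with DESeq2, 1 for the difference with edgeR, 0 for the difference when library sizes left out the 20 most abundant genes, and 0 in het in a single fit of all 8 libraries (F7 adjusted p = 0.17). Leaving out 1 library gave 1 to 2 in het and 0 to 3 for the difference. Over all genes, DESeq2 called 188 in TG, 289 in het and 371 for the difference. In het edgeR called 87, limma without robust estimates 93 and the fit of 8 libraries 0, while that fit called 25 in TG. Leaving out 1 library gave 0 to 146 in TG (146 without TG replicate 2), 61 to 173 in het and 5 to 643 for the difference (643 without TG replicate 2). The median of the 36 genes in het was -0.15 to -0.10 with a library left out. The causes were not tested.

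The replicate numbers do not pair the libraries by the labels, and the differences between replicates 1 and 2 correlated at 0.107 between the groups of the TG table and at -0.0426 in the het table. With the replicate number as a block, 1 of the 36 was called for the difference, C8b (adjusted p = 0.0203), with C1ra at 0.0991 and F7 at 0.0795; the counts of the 36 called were 0 in TG and 2 in het, as without it.

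Under other scalings and with DESeq2, signs turned only for values near 0. With library sizes without the 20 most abundant genes these were C3 (-0.02) and Masp2 in TG, Fga (-0.01) and Fgg (-0.02) in het, and Masp1 for the difference (-0.01; -0.000723 with DESeq2). With TMM scaling it was Fgg in het (-0.00323). With 1 library left out, the log2 fold change ranged from -0.29 to 0.32 for C3, -0.00322 to 0.29 for Masp1 and -0.60 to 0.14 for Mbl1 in TG, from -0.23 to 0.30 for C9, -0.22 to 0.23 for Fga, -0.24 to 0.17 for Fgb and -0.21 to 0.21 for Fgg in het, and from -0.07 to 0.54 for C3 and -0.14 to 0.16 for Masp1 for the difference.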

Other observations

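Among genes chosen after their values were seen, the liver forkhead factors Foxa1 and Foxa2 followed the direction of the clotting genes. Foxa1 stood at 659 and 601 in WT and 939 and 787 in TG, and at 373 and 245 in WT and 191 and 214 in het (log2 fold changes 0.45 and -0.58, limma adjusted p = 0.534 and 0.267). Foxa2 stood at 1622 and 1831 in WT and 3954 and 2012 in TG, and at 912 and 529 in WT and 471 and 408 in het (0.71 and -0.66, limma adjusted p = 0.595 and 0.44). The groups did not overlap in any of the 4 comparisons, and the difference of the effects was 1.03 for Foxa1 (limma adjusted p = 0.16) and 1.37 for Foxa2 (limma adjusted p = 0.278), which DESeq2 called. Hnf4a, the nuclear receptor that binds many clotting gene promoters, differed from WT by 0.13 (TG) and 0.17 (het) on the log2 scale.

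C1s1, the protease partner of C1r, lay with C1ra: 18995 and 17666 in WT and 27785 and 23985 in TG, and 7632 and 7168 in WT and 5863 and 6190 in het (log2 fold changes 0.49 and -0.30, limma adjusted p = 0.535 and 0.261), and DESeq2 called the difference of its effects. The C1q genes C1qa, C1qb and C1qc, which macrophages express, lay the other way in TG (-0.57, -0.33 and -0.41) and near 0 in het (-0.03, 0.09 and 0.00). F8, made by endothelial cells, differed by -0.28 (TG) and 0.49 (het) (limma adjusted p = 0.568 and 0.141), opposite to most clotting factors described above. Vwf and Thbd of the same list did not share this reversal, with -0.37 and -0.06 for Vwf and 0.14 and 0.33 for Thbd. Of the 35 genes of that list found in both tables, 5 lay below WT in TG and above WT in het, and 20 the other way.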
